A study of Mus musculus with 14 samples.

Results

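The 36 genes described here are Wnt ligands, their receptors and the secreted proteins that modulate them, taken from a list of gene symbols and found among the 36118 genes of a hippocampal expression table. They comprise 11 Wnt ligands, 10 Frizzled receptors, 5 co-receptors and tyrosine kinase-like receptors, 6 genes grouped as secreted inhibitors, 3 R-spondins and the feedback target Axin2. The RNA was polyA-selected from the hippocampus of 14 mouse pups (breed label C57/BL6) killed on postnatal day 15, with 1 library per mouse. Pups were kept in room air (RA) or in 85% O2 from postnatal day 1 to 14, and the study asked how loss of Gsdmd, a pore-forming protein cleaved during inflammasome activation, alters the response to hyperoxia.

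The 4 WT-RA and 4 WT-O2 mice were wild type (WT), and the study describes its WT mice as littermates of its knockout (KO) mice. The labels give no litter for any mouse. The 3 KO-RA and 3 KO-O2 mice were homozygous for a CRISPR/Cas9 allele that lacks a short stretch of the fifth Gsdmd exon in all cells. Gsdmd itself had 41 to 51 estimated counts in WT-RA, 51 to 63 in WT-O2, 22 to 42 in KO-RA and 36 to 40 in KO-O2 libraries. Its transcripts were thus counted in every KO mouse, and gene-level counts do not show whether they carry the deletion. The study reports that GSDMD protein staining was absent from KO sections. It also reports, without showing the data, that qRT-PCR measured no Gsdmd transcript in KO brains. WT and KO mice come from separate ranges of animal numbers, so genotype and the series of animals cannot be told apart. For WT-O2 mouse 4 the record's title gives hyperoxia and its treatment field room air, and the title was followed. All 10 hippocampal neuron markers examined were counted in every library. Their summed level was 609 to 979 CPM (counts per 1000000 counts of a library, TMM scaled) in WT and 1256 to 1572 CPM in KO mice, while 10 striatum markers summed to 421 to 968 CPM in WT and 160 to 269 CPM in KO mice, and 9 thalamus markers to 87.2 to 547 CPM in WT and 96.3 to 122 CPM in KO mice. KO-RA mouse 1 and KO-O2 mouse 2 stood apart with choroid plexus marker sums of 38.3 and 111 CPM, against 943 to 3458 CPM in the other 12 libraries.

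Wnt proteins are lipid-modified secreted signals that bind Frizzled receptors on neighbouring cells. With the co-receptors Lrp5 or Lrp6 they stabilise beta-catenin, which works with Tcf/Lef factors in the nucleus, and with Ror, Ryk or Frizzled partners of the planar polarity pathway they steer cell shape and axons without beta-catenin. Secreted Frizzled-related proteins, some Dickkopf proteins and Wif1 can restrain the signal, and R-spondins strengthen it by keeping receptors at the surface. The pathway is known in the hippocampus for patterning at the cortical hem and for neurogenesis in the dentate gyrus.

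Promoters are shown for the called genes Fzd10, Wnt2b, Sfrp2, Wnt2 and Wnt3, so that the DNA at their start sites can be read beside the values. RefSeq windows on the GRCm38.p6 build, from 250 bases before to 50 bases after the start site, were found for 23 of the 36 genes (25 windows). They were searched on both strands for the Tcf/Lef core words AACAAAG and ATCAAAG as well as TACAAAG along with TTCAAAG, and capitals mark a match. The first 4 sequences belong to genes called between genotypes in both exposures, and the last to Wnt3, whose window holds a match on the opposite strand 19 bases after the start site. Windows were also found for Wnt7a and Wnt9a, called in room air only. They hold no match and are not shown.
Fzd10 (chr5:128600856-128601155, plus strand): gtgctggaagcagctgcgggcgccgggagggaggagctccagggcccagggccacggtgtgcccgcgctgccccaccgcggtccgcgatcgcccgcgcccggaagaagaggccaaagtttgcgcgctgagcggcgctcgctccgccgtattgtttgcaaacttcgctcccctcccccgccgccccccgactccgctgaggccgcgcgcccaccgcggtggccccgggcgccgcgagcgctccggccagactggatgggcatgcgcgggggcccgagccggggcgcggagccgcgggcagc
Wnt2b (chr3:104961660-104961959, minus strand): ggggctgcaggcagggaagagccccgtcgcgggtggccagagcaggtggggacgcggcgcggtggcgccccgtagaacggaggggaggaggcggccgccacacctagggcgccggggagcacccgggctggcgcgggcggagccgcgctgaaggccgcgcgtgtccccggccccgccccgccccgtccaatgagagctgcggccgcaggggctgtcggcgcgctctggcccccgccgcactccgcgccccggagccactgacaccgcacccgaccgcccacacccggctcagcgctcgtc
Sfrp2 (chr3:83766071-83766370, plus strand): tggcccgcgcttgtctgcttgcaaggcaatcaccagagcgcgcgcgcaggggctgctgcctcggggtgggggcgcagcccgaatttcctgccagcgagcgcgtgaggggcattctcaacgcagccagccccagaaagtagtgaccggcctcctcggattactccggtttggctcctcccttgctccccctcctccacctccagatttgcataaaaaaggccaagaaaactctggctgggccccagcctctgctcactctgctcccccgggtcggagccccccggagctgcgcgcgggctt
Wnt2 (chr6:18030396-18030695, minus strand): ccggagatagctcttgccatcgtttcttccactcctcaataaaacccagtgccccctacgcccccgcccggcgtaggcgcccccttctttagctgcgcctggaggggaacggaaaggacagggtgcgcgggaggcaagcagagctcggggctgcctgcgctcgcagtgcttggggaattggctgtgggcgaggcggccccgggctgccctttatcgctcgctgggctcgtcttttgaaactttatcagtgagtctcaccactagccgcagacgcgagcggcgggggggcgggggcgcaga
Wnt3 (chr11:103773925-103774224, plus strand): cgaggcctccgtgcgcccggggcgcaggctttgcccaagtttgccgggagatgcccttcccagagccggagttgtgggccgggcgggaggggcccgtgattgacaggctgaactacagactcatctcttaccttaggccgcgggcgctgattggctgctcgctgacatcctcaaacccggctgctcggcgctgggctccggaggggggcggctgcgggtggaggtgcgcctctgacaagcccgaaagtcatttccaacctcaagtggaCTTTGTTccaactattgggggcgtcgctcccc

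The Fzd10 and Wnt2b windows are rich in CpG, with 45 and 43 CpG dinucleotides in 300 bases and 77.7% and 79.7% G or C, and the Wnt2 window holds 27 at 65.7%. The Sfrp2 window has 22 CpG and the Wnt3 window 24, against a median of 7 over all 32851 promoter windows of the table. A core word was present in 3 of the 25 windows (12%), those of Fzd7, Wnt3 and 1 start site of Wnt5b, and in 16.9% of all windows. A match is a description of the letters only, and the Dkk3, Fzd3, Rspo2 and Rspo3 promoters were not in the table.

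The Wnt genes spanned a wide range of expression. Levels compared between genes are given as CPM per kilobase of exon, averaged over the 14 libraries. Dkk3, a divergent Dickkopf family member, was the most abundant at 49.5, followed by the receptor tyrosine kinase-like protein Ryk at 11.2, the ligand Wnt7b at 9.58 and the receptor Fzd3 at 8.26. The co-receptor Lrp6 (5.76), the beta-catenin target Axin2 (5.56) and the ligand Wnt4 (5.11) lay close together. At the low end were Wnt8b at 0.12, the Dickkopf family gene Dkk2 at 0.277, the receptor Fzd5 at 0.336 and the Wnt5a receptor Ror2 at 0.401.

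**Figure D1:**
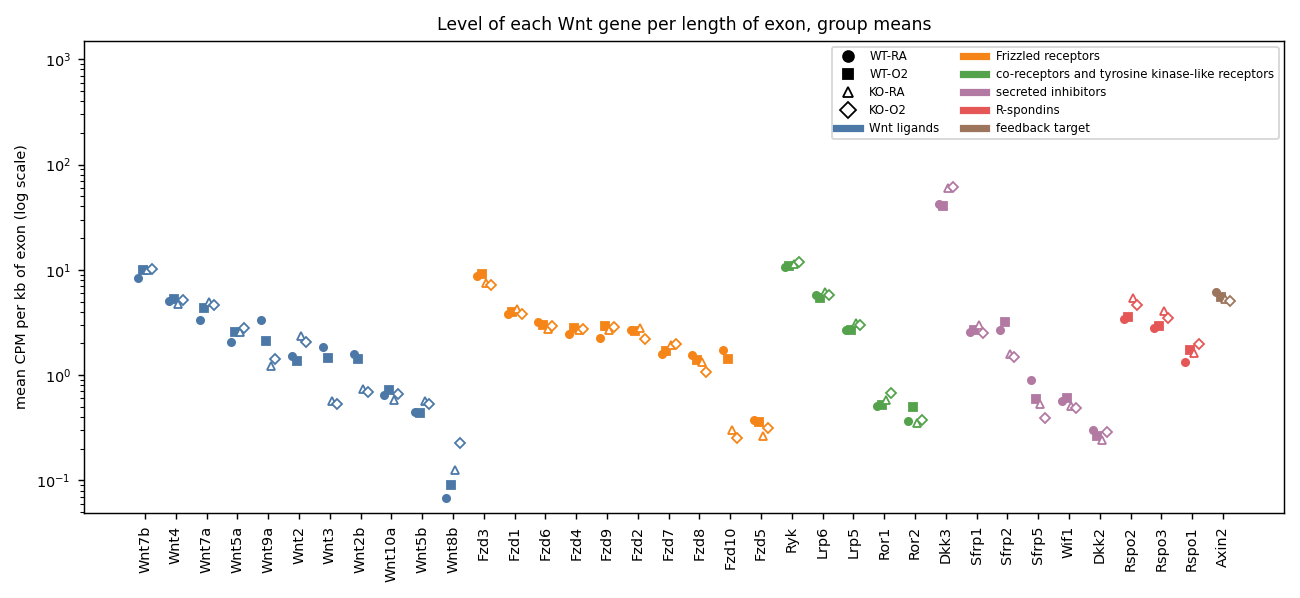
Mean CPM per kilobase of exon (log axis) of each of the 36 Wnt genes in the 4 groups, coloured by role and ordered by level within each role. Dkk3 lies above all other members at 40.2 to 61.5, and the KO symbols lie apart from the WT symbols for Wnt2b, Wnt3, Fzd10 and Sfrp2.

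Every member passed the filter on low counts. Those resting on fewest reads were Wnt8b with 1 to 25 estimated counts per library, Sfrp5 with 2 to 67, Dkk2 with 15 to 41, Wif1 with 16 to 74 and Fzd10 with 16 to 230. Wnt5b (25 to 54), Wnt10a (30 to 62), Ror2 (30 to 79) and Fzd5 (33 to 94) were also low, so that counting error adds to the spread between mice for these genes. Variation over the 14 mice was smallest for Ryk, with a coefficient of variation of 5.90%, Wnt4 at 7.56% and Lrp6 at 7.59%. It was largest for Wnt3 at 87.8% and Fzd10 at 81.9%.

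Hyperoxia in WT mice was compared first, to ask which Wnt genes respond to oxygen when Gsdmd is intact. No member was called in WT-O2 vs WT-RA, where a call required a change of at least 25%, p below 0.05 and q below 0.1, q being the Benjamini-Hochberg adjusted p of the edgeR quasi-likelihood test over 16637 genes. Of all genes tested, 0.643% were called, 0.349% higher and 0.295% lower. At an unadjusted p below 0.05 there were 6 members (16.7%, against 12.2% of all genes), namely Wnt5a, Wnt7a, Wnt7b, Fzd9 and Ror2 with positive and Wnt9a with a negative log2 fold change. DESeq2, which called 310 of all genes against 107 by edgeR, called 2 members, Wnt7a higher and Wnt9a lower. Groups did not overlap for 3 members (8.33%, against 5.99% of all genes), and the median log2 fold change of the 36 was 0.05, against -0.01 over all genes.

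Wnt7a (ENSMUSG00000030093), which with Wnt7b directs the growth and barrier properties of brain vessels, had the smallest p of the members in this comparison. Its level was 9.42, 10.5, 11.0 and 11.7 CPM in WT-RA mice 1 to 4, and 15.9, 12.9, 13.8 and 11.8 CPM in WT-O2 mice 1 to 4. All WT-O2 mice lay above all WT-RA mice, although WT-O2 mouse 4 exceeded WT-RA mouse 4 by little. The log2 fold change was 0.36 ± 0.09 (SE, n = 4 and 4; edgeR q = 0.139), and log2 values below are likewise given with their SE. Without WT-O2 mouse 4 it rose to 0.42 and passed the thresholds.

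Wnt9a (ENSMUSG00000000126), a canonical ligand, showed the largest negative difference among the members at -0.66 ± 0.20 on the log2 scale (edgeR q = 0.180). It measured 9.02, 9.76, 16.9 and 8.47 CPM in WT-RA and 6.82, 6.13, 8.14 and 6.80 CPM in WT-O2 mice 1 to 4. WT-RA mouse 3 was far above the other 3 room air mice, but all WT-O2 values were below all WT-RA values. That mouse also had the highest neocortical neuron marker sum of all mice, 325 CPM. The part of neocortical tissue in the Wnt9a values was not tested. Wnt7b (ENSMUSG00000022382), the ligand with the highest level per kilobase, measured 30.5, 36.5, 44.7 and 42.2 CPM in WT-RA and 49.1, 46.6, 47.4 and 41.6 CPM in WT-O2 mice 1 to 4. The groups overlapped through WT-O2 mouse 4, and the log2 fold change was 0.26 ± 0.09 (edgeR q = 0.260).

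The Frizzled receptors, co-receptors, inhibitors and R-spondins held no call under hyperoxia in WT. Differences among the 10 Frizzled receptors lay between -0.27 for Fzd10 and 0.37 for Fzd9 on the log2 scale. Axin2 (ENSMUSG00000000142), a scaffold of the beta-catenin destruction complex that is induced by the pathway as feedback, measured 25.6, 25.04, 26.1 and 27.3 CPM in WT-RA and 23.3, 24.98, 23.8 and 23.0 CPM in WT-O2 mice 1 to 4. The WT-O2 values were all below the WT-RA values, by a narrow margin for WT-O2 mouse 2. The log2 fold change of Axin2 was -0.13 ± 0.07, and its edgeR q of 0.474 missed the threshold.

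In KO mice, hyperoxia was likewise not followed by a called member. In KO-O2 vs KO-RA, where 0.012% of all genes were called and 0.00601% in each direction, edgeR and DESeq2 both called 0 of the 36, and 2 (5.56%, against 4.86% of all genes) had an unadjusted p below 0.05. Those were Fzd2 and Fzd8, both with negative log2 fold changes. Groups did not overlap for 3 members (8.33%, against 11.8% of all genes), which were Wnt4, Fzd2 and Rspo1. The median log2 fold change of the members was -0.05, and that of all genes was -0.002.

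Fzd2 (ENSMUSG00000050288), a Frizzled receptor that also binds Wnt5a, had the smallest p in KO-O2 vs KO-RA. It measured 8.99, 9.86 and 11.6 CPM in KO-RA mice 1 to 3 and 8.84, 7.12 and 8.48 CPM in KO-O2 mice 1 to 3. The ranges met closely, at 8.99 CPM in KO-RA mouse 1 and 8.84 CPM in KO-O2 mouse 1. Between the groups the log2 fold change was -0.32 ± 0.13 (SE, n = 3 and 3; edgeR q = 0.997). In WT mice Fzd2 measured 11.2, 8.17, 9.93 and 10.2 CPM in WT-RA and 9.49, 10.04, 9.88 and 9.40 CPM in WT-O2 mice 1 to 4, with a log2 fold change of -0.03 ± 0.11.

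Whether the response to hyperoxia differed between genotypes was tested with the interaction term, which called 0 members by edgeR and 0 by DESeq2, as it called 0% of all genes. Its unadjusted p was below 0.05 for 2 of 36 (5.56%, against 4.05% of all genes). For Wnt7a the hyperoxia difference was lower in KO than in WT by a log2 value of -0.42 ± 0.14 (edgeR q = 1.00). For Wnt9a it was higher by 0.89 ± 0.31 (edgeR q = 1.00).

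**Figure D2:**
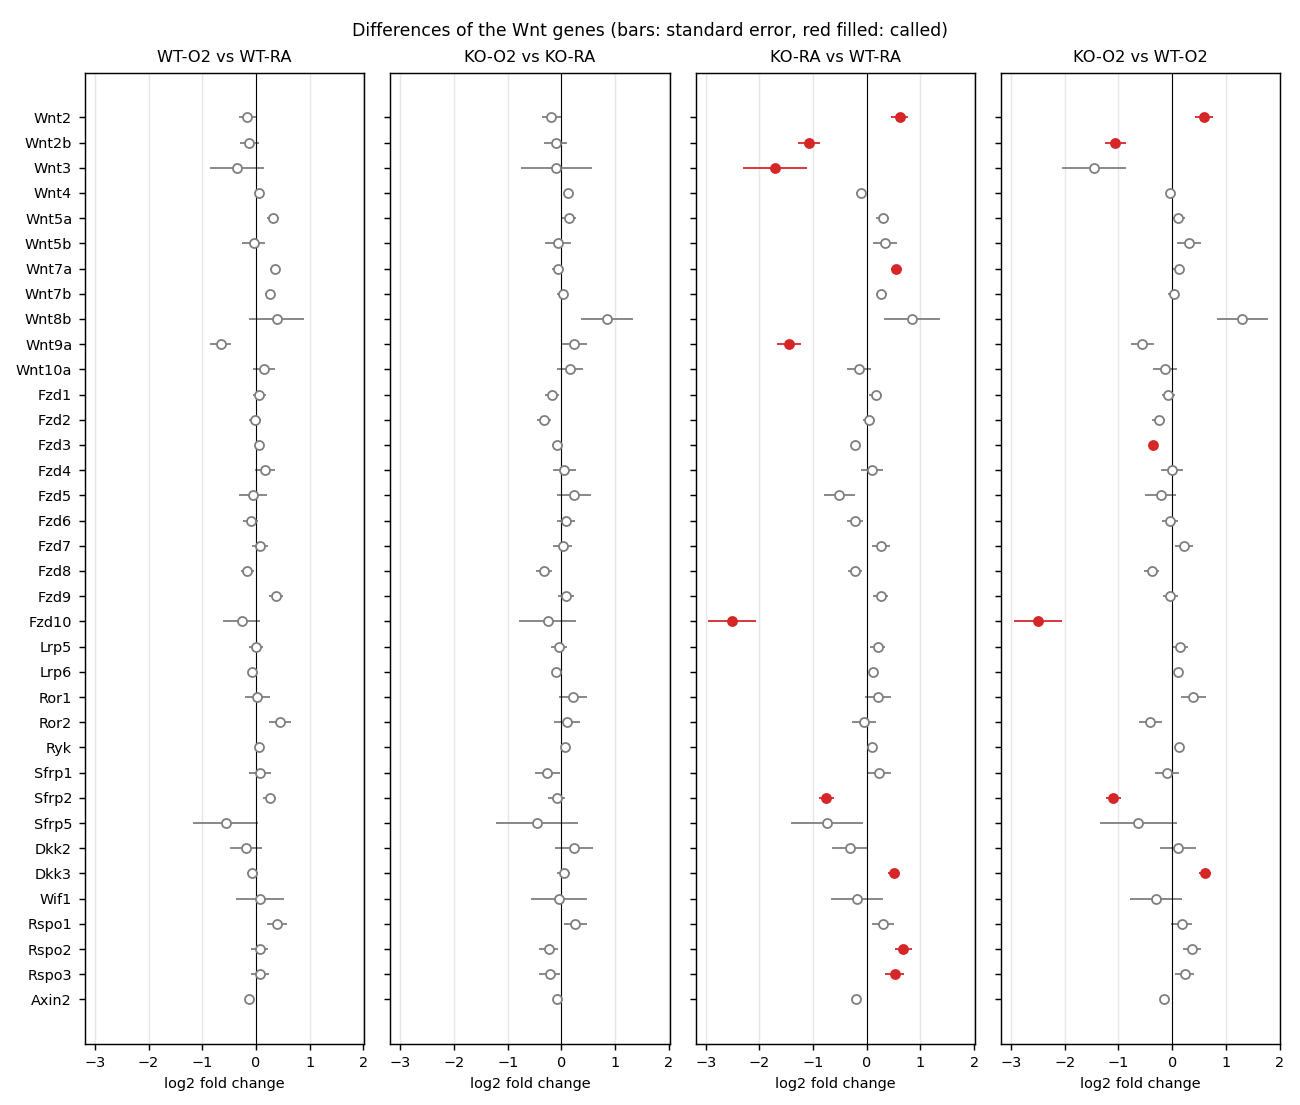
Log2 fold change (x axis) of each Wnt gene in the 4 comparisons, with bars of 1 standard error and filled red points for calls. No point is filled in either hyperoxia panel, 10 are filled in KO-RA vs WT-RA and 6 in KO-O2 vs WT-O2, with Fzd10 the lowest at -2.51 and -2.50.

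Genotype was followed by larger differences. In room air 10 of 36 members were called (27.8%, against 10.4% of all genes), with Wnt2, Wnt7a, Dkk3, Rspo2 and Rspo3 higher and Wnt2b, Wnt3, Wnt9a, Fzd10 and Sfrp2 lower in KO-RA than in WT-RA. Over all genes 3.75% were called higher and 6.7% lower. An unadjusted p below 0.05 was found for 14 members (38.9%, against 23.5% of all genes) and groups did not overlap for 15 (41.7%, against 19.6%). The median log2 fold change was 0.10 among the members and -0.01 among all genes.

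Under hyperoxia 6 of 36 members were called between genotypes (16.7%, against 6.86% of all genes), with Wnt2 and Dkk3 higher and Wnt2b, Fzd3, Fzd10 and Sfrp2 lower in the KO-O2 mice. Called higher were 2.51% and called lower 4.35% of all genes. An unadjusted p below 0.05 was found for 12 members (33.3%, against 18.7% of all genes), and groups did not overlap for 11 (30.6%, against 19%). The median log2 fold change was -0.04 among the members and -0.01 among all genes.

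Both genotype comparisons use different mice. Wnt2, Wnt2b, Fzd10, Sfrp2 and Dkk3 were called in each, and the sign of the difference was the same in both exposures for 30 of the 36 members (83.3%), against 70.7% of all genes. For the called members it was the same for 10 of 10 and for 6 of 6, against 96.6% and 97% of all called genes.

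**Figure D3:**
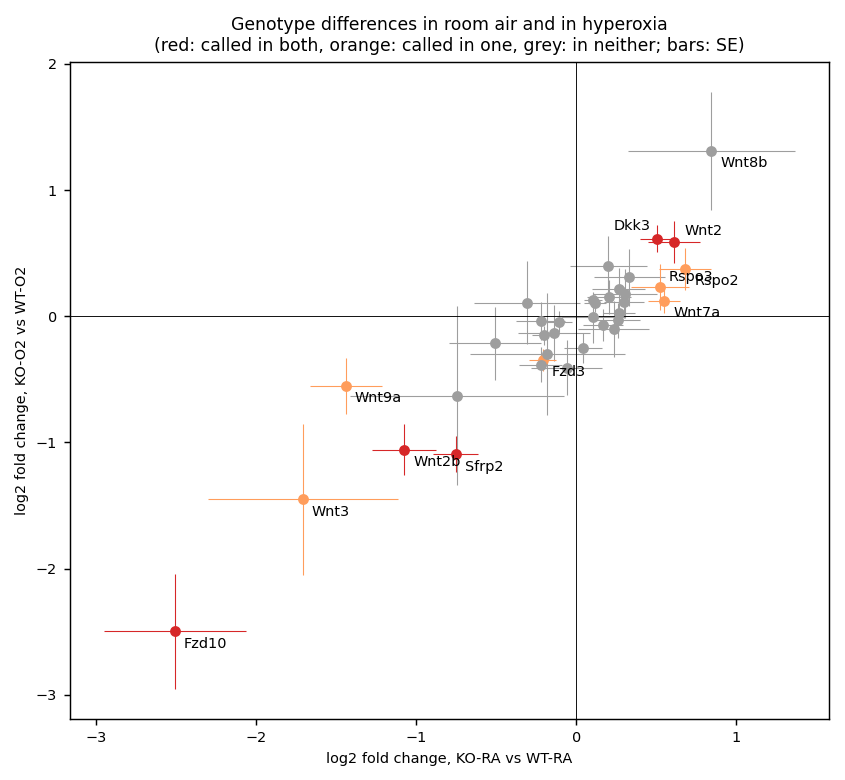
Log2 fold change between genotypes in room air (x axis) and in hyperoxia (y axis) for the 36 Wnt genes, with bars of 1 standard error and colour for the number of comparisons in which a gene was called. Wnt2 and Dkk3 lie at the upper right, and Fzd10, Wnt2b and Sfrp2 at the lower left, in red as genes called in both.

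These are measurements of whole tissue, in which fewer cells of a type and less RNA per cell cannot be told apart. The hippocampal neuron markers moved with genotype, 9 of 10 being called higher in KO-RA and 6 of 10 in KO-O2. All 10 striatum markers and 5 of 9 thalamus markers were called lower in both, as were 6 of 6 oligodendrocyte markers in room air and 4 of 6 under hyperoxia, and 5 of 6 neocortical neuron markers in room air and 1 under hyperoxia. Of 7 astrocyte markers, 2 were called higher in KO-RA and 1 in KO-O2. The summed level of all 7 was 2204 to 2447 CPM in KO against 1665 to 2058 CPM in WT mice. Not every astrocyte marker went with that sum. Aldh1l1 was lower in room air, at 45.0 to 48.4 CPM in KO-RA against 49.1 to 57.5 CPM in WT-RA mice, without a call. S100b overlapped between genotypes. In WT-O2 vs WT-RA, 2 of 6 neocortical neuron markers were called lower and 0 higher. The 6 oligodendrocyte markers had a median log2 fold change of -0.66 there, with 0 called. The part of neocortical and oligodendrocyte tissue in the WT hyperoxia differences was not tested. The R squared of genotype was 0.91 for the striatum score, 0.395 for the thalamus score and 0.85 for the hippocampal neuron score. With the thalamus and striatum scores as covariates, or with the hippocampal neuron score as the covariate, no Wnt gene was called between genotypes in either exposure. Those fits called at most 2 of all genes between genotypes, and the part of these tissues in the differences below cannot be told apart from genotype. For the choroid plexus and meninges scores the R squared of genotype was 0.0553 and 0.124, and genotype regressed on both together gave 0.463. With the choroid plexus and meninges scores as covariates, 9 of the 10 room air calls were lost, all but Wnt7a, and 500 of all genes were called in room air. That fit called 5 of the 6 members under hyperoxia, all but Wnt2. The share of all genes it called under hyperoxia is not given here, so this count has no background to be read against.

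**Figure D4:**
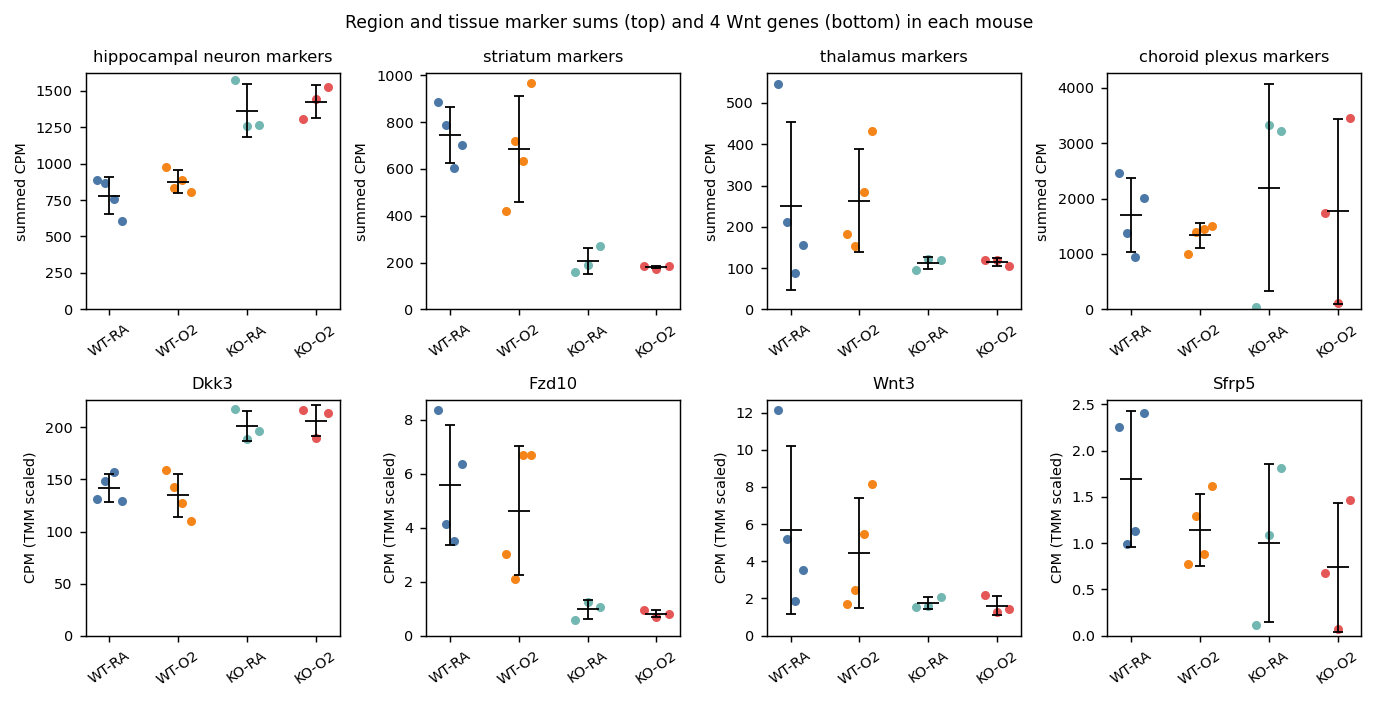
Summed CPM of 4 marker lists (top) and CPM of 4 Wnt genes (bottom) in each mouse, with horizontal bars for means and vertical bars for SD (4 mice in each WT and 3 in each KO group). Hippocampal neuron sums are higher and striatum sums lower in all KO than in all WT mice, the thalamus sum reaches 547 CPM in WT-RA mouse 1, and choroid plexus sums of 38.3 and 111 CPM mark 2 KO mice.

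Among the ligands, Wnt2 (ENSMUSG00000010797), a canonical ligand known from vessels and lung development, was higher in KO mice in both exposures. It measured 2.58, 4.54, 3.53 and 3.12 CPM in WT-RA, 5.46, 4.83 and 5.52 CPM in KO-RA, 3.08, 3.33, 3.26 and 2.63 CPM in WT-O2, and 5.16, 4.26 and 4.46 CPM in KO-O2 mice. WT-RA mouse 2 came closest to the KO-RA mice, and at the same exposure no WT mouse reached a KO mouse. Its log2 fold change was 0.61 ± 0.16 in room air (edgeR q = 0.0293) and 0.59 ± 0.17 under hyperoxia (edgeR q = 0.0538). The room air call was lost without KO-RA mouse 1 (0.59), and the hyperoxia call without WT-O2 mouse 4, KO-O2 mouse 1 or KO-O2 mouse 3.

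Wnt2b (ENSMUSG00000027840), a ligand of the cortical hem in development, went the other way. It measured 6.76, 4.76, 4.45 and 4.88 CPM in WT-RA and 2.04, 2.69 and 2.67 CPM in KO-RA mice. Under hyperoxia it measured 4.76, 4.12, 5.13 and 5.05 CPM in WT-O2 and 1.61, 2.94 and 2.33 CPM in KO-O2 mice. Every KO mouse was below every WT mouse. On the log2 scale the difference was -1.08 ± 0.20 in room air (edgeR q = 0.00376) and -1.06 ± 0.20 under hyperoxia (edgeR q = 0.00638), and both calls were kept when any 1 library was left out.

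Wnt3 (ENSMUSG00000000125), a canonical ligand whose promoter is shown above, varied most between WT mice. Its level was 12.2, 5.21, 1.84 and 3.55 CPM in WT-RA and 1.72, 2.44, 5.45 and 8.13 CPM in WT-O2 mice 1 to 4, against 1.52, 1.57 and 2.10 CPM in KO-RA and 2.18, 1.247 and 1.43 CPM in KO-O2 mice. WT-RA mouse 1 and WT-O2 mouse 4 were the highest of their groups, and these were also the mice with the highest thalamus marker sums, 547 and 431 CPM. The lowest WT mice overlapped the KO mice in both exposures. This gave a log2 fold change of -1.71 ± 0.59 in room air (edgeR q = 0.0869) and -1.45 ± 0.60 under hyperoxia (edgeR q = 0.197). Leaving out 1 library moved the room air value to between -2.001 and -1.02, the latter without WT-RA mouse 1, and ended the call for 9 of the 14, namely WT-RA mice 1 and 2, WT-O2 mouse 3 and all 6 KO mice. The call was also lost with WT-RA mouse 1 and WT-O2 mouse 4 both left out (-1.02, edgeR q = 0.166). With the thalamus and striatum scores as covariates it turned to 0.80 with an edgeR q of 0.786.

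Wnt7a was higher in KO mice in room air, at 15.8, 14.7 and 16.2 CPM in KO-RA against the 9.42 to 11.7 CPM of WT-RA. No values overlapped, and the log2 fold change was 0.55 ± 0.10 (edgeR q = 0.00360). Under hyperoxia the KO-O2 mice measured 14.5, 15.2 and 14.9 CPM, within the 11.8 to 15.9 CPM of WT-O2, with a log2 fold change of 0.12 ± 0.10 (edgeR q = 0.581). Its relative Wnt7b measured 45.8, 47.1 and 46.1 CPM in KO-RA and 46.8, 47.0 and 47.5 CPM in KO-O2 mice, and the genotype values of 0.27 ± 0.10 in room air (edgeR q = 0.112) and 0.03 ± 0.10 under hyperoxia (edgeR q = 0.928) missed the threshold.

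Wnt9a was lower in KO mice in room air, at 5.01, 3.22 and 3.95 CPM in KO-RA against 8.47 to 16.9 CPM in WT-RA mice. No values overlapped, and the difference on the log2 scale was -1.44 ± 0.22 (edgeR q = 0.00122), the smallest q of any member in room air. It was 5.12, 4.59 and 4.54 CPM in KO-O2 against 6.13 to 8.14 CPM in WT-O2 mice. These did not overlap either, but the log2 fold change of -0.55 ± 0.22 had an edgeR q of 0.178. Without WT-RA mouse 3, the outlying high value, the room air call was kept.

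The other 5 ligands were not called in any comparison. Wnt4 was steady at 19.3 to 24.7 CPM in all mice. Wnt5a, a ligand of the beta-catenin-independent branch, had a log2 fold change of 0.30 ± 0.12 in KO-RA vs WT-RA (edgeR q = 0.158). Wnt8b, another cortical hem ligand, had 1 to 12 counts in WT and 10 to 25 in KO libraries, and its log2 fold change of 1.31 ± 0.47 under hyperoxia missed the threshold at an edgeR q of 0.131. Wnt5b and Wnt10a lay between 0.916 and 2.22 CPM.

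**Figure D5:**
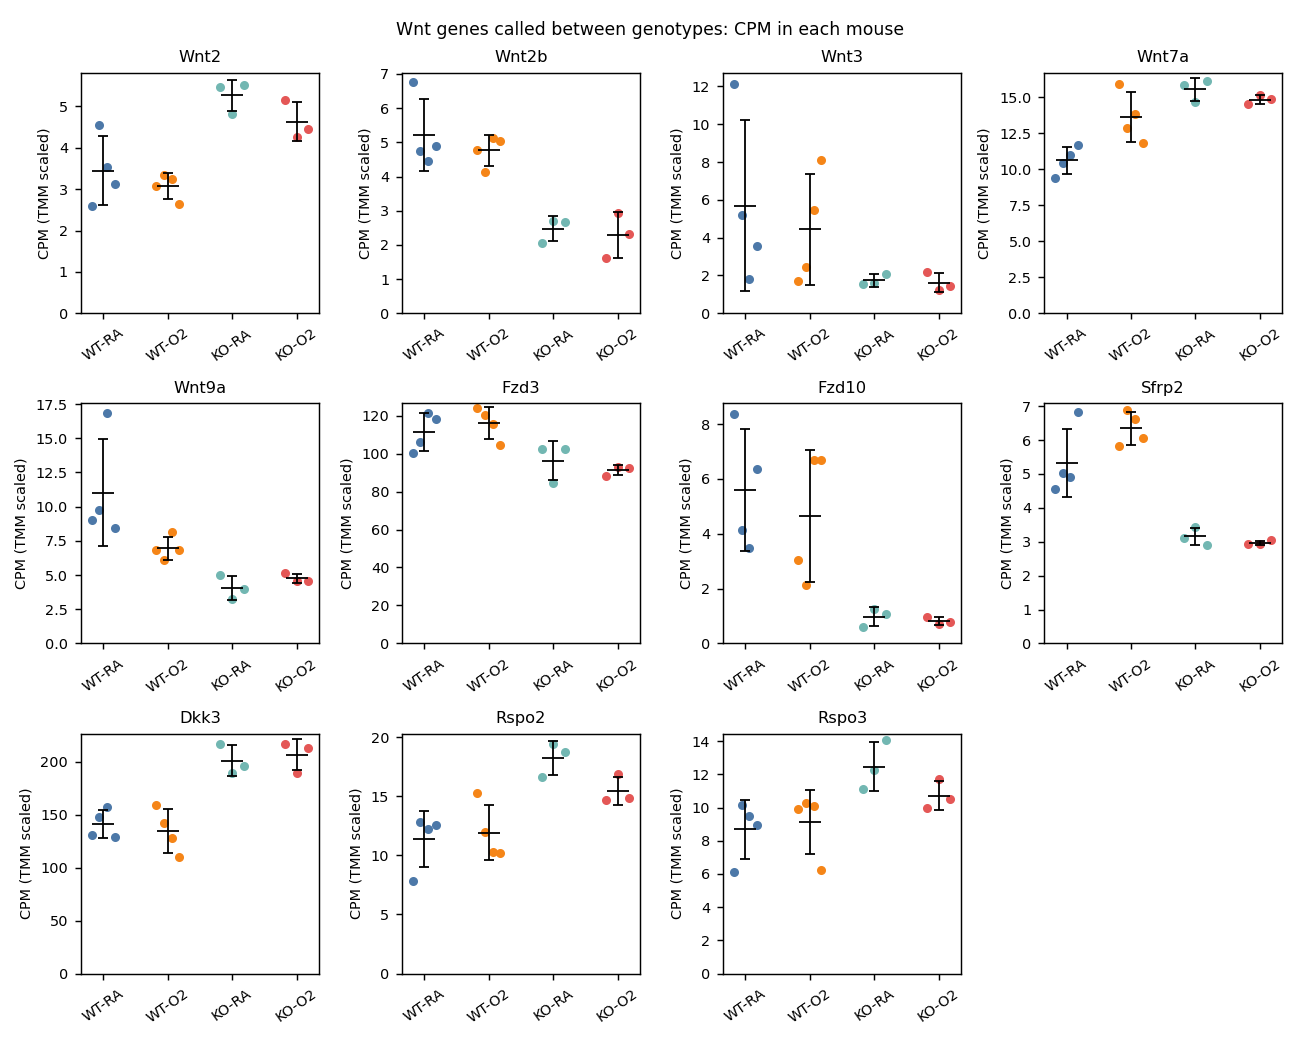
CPM in each mouse (points) of the 11 Wnt genes called between genotypes in at least 1 exposure, with horizontal bars for group means and vertical bars for SD (n = 4 WT and 3 KO mice per group). All KO points lie below all WT points for Wnt2b, Fzd10 and Sfrp2 and above them for Dkk3, whereas KO and WT points overlap for Wnt3.

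Among the receptors, Fzd10 (ENSMUSG00000081683), a Frizzled that acts through beta-catenin, showed the largest difference. It measured 8.37, 4.12, 3.50 and 6.35 CPM in WT-RA and 3.04, 2.12, 6.69 and 6.70 CPM in WT-O2 mice 1 to 4. In KO mice it was 0.594, 1.26 and 1.07 CPM in room air and 0.967, 0.697 and 0.788 CPM under hyperoxia, from 16 to 36 counts per library. The lowest WT mouse was above the highest KO mouse. In KO relative to WT mice the log2 value was -2.51 ± 0.44 in room air (edgeR q = 0.00277) and -2.50 ± 0.45 under hyperoxia (edgeR q = 0.00481). Both calls held with any 1 library left out, at values between -2.74 and -2.24.

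Fzd3 (ENSMUSG00000007989), a receptor of the planar polarity branch that guides axon tracts and the Frizzled with the highest level per kilobase, was called lower in KO mice under hyperoxia and not in room air. It measured 100.2, 106, 121 and 118 CPM in WT-RA and 124, 120.3, 116 and 105 CPM in WT-O2 mice. In KO-RA it measured 102, 84.4 and 102 CPM and in KO-O2 88.3, 92.8 and 92.6 CPM. The KO-O2 mice were all below the WT-O2 mice, and the room air groups overlapped. The log2 fold change was -0.35 ± 0.08 under hyperoxia (edgeR q = 0.0252) and -0.21 ± 0.08 in room air (edgeR q = 0.138), with -0.14 ± 0.12 for the interaction (edgeR q = 1.00). The hyperoxia call was lost without WT-O2 mouse 1 or KO-O2 mouse 1.

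None of the other 8 Frizzled receptors was called. Their log2 fold changes between genotypes ran from -0.51 (Fzd5) to 0.27 (Fzd7) in room air and from -0.38 (Fzd8) to 0.21 (Fzd7) under hyperoxia. Fzd4, which also serves as the receptor of Norrin in vessels, had 0.10 ± 0.20 in room air and -0.01 ± 0.20 under hyperoxia.

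The co-receptors differed little. Lrp6 (ENSMUSG00000030201), the co-receptor with the highest CPM, measured 59.4, 56.5, 49.5 and 49.6 CPM in WT-RA and 51.8, 49.9, 49.9 and 51.2 CPM in WT-O2 mice. It measured 56.8, 55.2 and 62.8 CPM in KO-RA and 52.7, 53.6 and 56.9 CPM in KO-O2 mice. The KO-O2 mice lay just above the WT-O2 mice, and the room air groups overlapped. Its log2 fold change was 0.12 ± 0.07 in room air (edgeR q = 0.345) and 0.10 ± 0.07 under hyperoxia (edgeR q = 0.495). Lrp5, Ror1, Ror2 and Ryk had log2 fold changes from -0.41 (Ror2 under hyperoxia) to 0.40 (Ror1 under hyperoxia), none of them called.

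Sfrp2 (ENSMUSG00000027996), a secreted Frizzled-related protein that binds Wnt ligands, was lower in KO mice in both exposures. It measured 4.55, 5.04, 4.91 and 6.82 CPM in WT-RA and 3.12, 3.43 and 2.92 CPM in KO-RA mice. Under hyperoxia it measured 5.83, 6.88, 6.62 and 6.07 CPM in WT-O2 and 2.94, 2.94 and 3.04 CPM in KO-O2 mice. The KO mice were below all WT mice and lay close together. On the log2 scale the difference was -0.75 ± 0.14 in room air (edgeR q = 0.00400) and -1.10 ± 0.14 under hyperoxia (edgeR q = 0.000710), the smallest q of any member, and both calls held with any 1 library left out.

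Dkk3 (ENSMUSG00000030772), the most abundant member, was higher in KO mice. Whether Dkk3 restrains Wnt signalling in this tissue was not tested. It measured 131, 148, 157 and 129.5 CPM in WT-RA and 159, 142.5, 128 and 110.5 CPM in WT-O2 mice 1 to 4. The KO mice measured 217, 189 and 197 CPM in room air and 217, 189.8 and 213 CPM under hyperoxia. All KO mice were above all WT mice, by at least the step from 159 to 189 CPM. This gave a log2 fold change of 0.51 ± 0.11 in room air (edgeR q = 0.00797) and 0.61 ± 0.11 under hyperoxia (edgeR q = 0.00385), and both calls held with any 1 library left out. With the thalamus and striatum scores as covariates the values were -0.0027 and 0.09 (edgeR q = 1.00 and 0.963).

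The other genes grouped as inhibitors, Sfrp1, Sfrp5, Dkk2 and Wif1, were not called in any comparison. Sfrp5 had 3 counts in KO-RA mouse 1 and 2 in KO-O2 mouse 2, the mice with few choroid plexus transcripts, and 19 to 67 counts in the other 12 mice. Its log2 fold change of -0.74 ± 0.67 in room air (edgeR q = 0.573) and -0.63 ± 0.71 under hyperoxia (edgeR q = 0.717) missed the threshold. Sfrp1 was also lowest in KO-RA mouse 1 and KO-O2 mouse 2, at 201 and 222 counts, against 293 to 485 in the other 12 mice. With both of these libraries left out, Sfrp1 was called between genotypes in room air. The part of choroid plexus tissue in the Sfrp5 and Sfrp1 values was not tested.

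Of the 3 R-spondins, secreted proteins that strengthen Wnt signalling, Rspo2 and Rspo3 were higher in KO mice in room air and Rspo1 was not called. Rspo2 (ENSMUSG00000051920) measured 7.82, 12.9, 12.3 and 12.6 CPM in WT-RA and 16.6, 19.4 and 18.8 CPM in KO-RA mice. Rspo3 (ENSMUSG00000019880) measured 6.11, 10.1, 9.51 and 8.97 CPM in WT-RA and 11.1, 12.2 and 14.1 CPM in KO-RA mice. WT-RA mouse 1 was the lowest for both, and no room air values overlapped between genotypes. In KO relative to WT mice the log2 value was 0.68 ± 0.16 for Rspo2 (edgeR q = 0.0156) and 0.52 ± 0.18 for Rspo3 (edgeR q = 0.0834).

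Under hyperoxia Rspo2 measured 15.2, 11.9, 10.3 and 10.2 CPM in WT-O2 and 14.7, 16.8 and 14.8 CPM in KO-O2 mice. Rspo3 measured 9.89, 10.3, 10.1 and 6.24 CPM in WT-O2 and 9.95, 11.7 and 10.5 CPM in KO-O2 mice. Both overlapped, with log2 fold changes of 0.37 ± 0.16 (edgeR q = 0.229) and 0.23 ± 0.18 (edgeR q = 0.549), and the interaction was not called for either. The Rspo2 call in room air held with any 1 library left out, whereas that of Rspo3 was lost for 7 of the 14, WT-RA mice 1 and 4, all 3 KO-RA mice and KO-O2 mice 1 and 3. Rspo1, the third R-spondin, was not called, at 0.30 ± 0.20 in room air.

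Axin2 measured 23.2, 23.9 and 20.8 CPM in KO-RA and 21.1, 23.7 and 19.5 CPM in KO-O2 mice. The KO-RA mice were all below the WT-RA mice, and KO-O2 mouse 2 lay among the WT-O2 mice. Its log2 fold change was -0.20 ± 0.07 in room air (edgeR q = 0.107) and -0.15 ± 0.08 under hyperoxia (edgeR q = 0.305), and neither was called.

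Among 62 other genes of the pathway, from a list of further ligands, secretion factors, modulators, membrane regulators, cytoplasmic and nuclear components and planar polarity genes, 56 passed the filter. The ligands Wnt3a and Wnt8a and the modulators Dkk1, Dkk4, Sost and Rspo4 did not, with at most 14 counts in a library. In room air 12 of 56 were called between genotypes (21.4%, against 10.4% of all genes), 5 higher and 7 lower in KO. Under hyperoxia 6 were called (10.7%, against 6.86%), 4 higher and 2 lower.

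The largest of these differences was in Tcf7l2, a nuclear partner of beta-catenin. It measured 114, 52.4, 8.91 and 22.4 CPM in WT-RA and 29.8, 44.3, 51.5 and 64.9 CPM in WT-O2 mice 1 to 4, against 6.65 to 8.47 CPM in the KO mice. The WT mice spread widely, WT-RA mouse 1 being highest in both Tcf7l2 and the thalamus marker sum and WT-RA mouse 3 lowest in both. The log2 fold change was -2.78 ± 0.62 in room air (edgeR q = 0.0111) and -2.62 ± 0.62 under hyperoxia (edgeR q = 0.0213). The part of thalamic tissue in this difference was not tested.

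Its relatives Lef1 and Tcf7 were lower in room air, by log2 values of -1.21 ± 0.43 and -0.33 ± 0.11 (edgeR q = 0.0944 and 0.0658). Lef1 measured 28.5, 12.7, 6.01 and 9.51 CPM in WT-RA and 6.80, 5.91 and 5.62 CPM in KO-RA mice. WT-RA mouse 1, with the highest thalamus marker sum, stood apart, and WT-RA mouse 3 lay below KO-RA mouse 1, so that the groups overlapped for Lef1 but not for Tcf7. The R-spondin receptor Lgr5 (-0.60 ± 0.19), the Dishevelled antagonist Nkd1 (-0.60 ± 0.12), the Dickkopf-like gene Dkkl1 (-1.54 ± 0.32) and the planar polarity gene Prickle1 (-0.56 ± 0.08) were also called lower in KO-RA. Nkd2, the paralog of Nkd1, went the other way at 0.63 ± 0.13, as did the secreted modulators Frzb (0.46 ± 0.10), Ndp (0.46 ± 0.14) and Draxin (0.80 ± 0.21) and the nuclear cofactor Pygo1 (0.47 ± 0.08). Under hyperoxia Frzb (0.43 ± 0.11) and Pygo1 (0.39 ± 0.08) were again higher in KO, with Sfrp4 (0.57 ± 0.17) and Lrp4 (0.37 ± 0.08), and the R-spondin receptor Lgr6 was lower (-0.86 ± 0.22).

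In the hyperoxia comparisons 1 of the 56 pathway genes was called in WT (1.79%, against 0.643% of all genes) and none in KO. That gene was Prickle1, which fell from 86.5 ± 5.95 CPM in WT-RA to 65.8 ± 7.11 CPM in WT-O2 mice (SD, n = 4 and 4). Its log2 fold change was -0.40 ± 0.07 (edgeR q = 0.0525), and no values overlapped. In KO mice Prickle1 was 58.7 ± 1.18 CPM in room air and 60.6 ± 3.25 CPM under hyperoxia (SD, n = 3 and 3).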

How the data were processed

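Hippocampal RNA of 14 mice was sequenced as polyA-selected paired-end libraries. Estimated counts for each gene were deposited by the authors, made from reads assigned to GRCm39 transcripts with Kallisto and summed with tximport, and they tested genes with DESeq2. Versions of these tools are not given in the sources used here. Estimated counts sum to between 27272270 and 28257496 per library, are not allele-specific and are limited in precision for genes with few reads.

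Counts were rounded, and groups were taken from the sample titles. Of 36118 genes, 16637 passed edgeR's filterByExpr and entered 1 TMM-normalized model with a coefficient for each group (edgeR 4.0.16, R 4.3.3). Comparisons used the two-sided quasi-likelihood test with Benjamini-Hochberg adjustment over all genes tested. A call required a level at least 1.25-fold higher or lower, p below 0.05 and q below 0.1, the thresholds of the study's methods. On simulated counts of the same 16637 genes, calls in KO-RA vs WT-RA recovered 53 of 100 genes with a 1.5-fold and 80 of 100 with a 2-fold change. Those in WT-O2 vs WT-RA recovered 65 and 87 of 100. Calls among unchanged genes numbered 19 and 8. The simulation changed 200 genes per comparison and held no tissue differences between mice, so recovery in the real data can differ. CPM was scaled by TMM. Log2 values entering marker scores had a prior count of 2, and exon lengths were taken from GENCODE M21 as unions of exons.

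The members and lists were chosen with earlier results of these data known. Values in every mouse were given for members called in a comparison, for the smallest p of each comparison and for the highest CPM of each role. Values for other pathway genes were given where called. The labels do not give litters, and the p-values treat the mice as independent. Whether shared litters made them too small could not be checked. Alternatives were DESeq2 1.42.0, other size factors, other filters, only the groups compared, WT-O2 mouse 4 as room air, marker scores as covariates and each library left out. Leaving out the libraries with low choroid plexus or the highest thalamus markers, and the hippocampal neuron score as a covariate, were chosen after seeing the data. Marker scores are means of standardized log2 CPM.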

Additional observations from a re-analysis of the deposited data

Results flagged for a closer look

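In 4 of 72 groups of 4 WT mice examined over the 36 members, 1 mouse stood far from the other 3, where chance alone marks about 1 in 20 groups, or 3.6. Wnt5a in WT-O2 mouse 4 was 17.1 CPM, against 18.4 to 18.6 CPM in the other 3 mice of its group. Wnt9a in WT-RA mouse 3 was 16.9 CPM, against 8.47 to 9.76 CPM. Rspo2 in WT-RA mouse 1 was 7.82 CPM, against 12.3 to 12.9 CPM. Rspo3 in WT-O2 mouse 4 was 6.24 CPM, against 9.89 to 10.3 CPM. WT-RA mouse 1 and WT-O2 mouse 4 also had the highest thalamus marker sums of their groups, and WT-RA mouse 3 the lowest of all mice at 87.2 CPM. The part of tissue composition in these values was not tested.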

How the results depend on the processing

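No paired analysis was possible because the labels carry no replicate numbers, and the mice were numbered in record order. For 19 results on single members, 493 alternative values were computed, of which 418 kept their direction and side of the threshold, 70 lost the call, 3 gained it and 2 changed sign. Both changes of sign came with the thalamus and striatum scores as covariates in KO-RA vs WT-RA, to 0.80 for Wnt3 and -0.0027 for Dkk3. With those covariates WT-O2 vs WT-RA held 2 called members, and 0 were called in KO-RA vs WT-RA and KO-O2 vs WT-O2. With the hippocampal neuron score 0 were called in either genotype comparison. With choroid plexus and meninges scores 1 (Wnt7a) was called in KO-RA vs WT-RA and 5 in KO-O2 vs WT-O2, the latter without a count over all genes given here. DESeq2 called 2 in WT-O2 vs WT-RA. Leaving out 1 library, calls numbered between 0 and 1 in WT-O2 vs WT-RA (Wnt7a without WT-O2 mouse 4), 8 and 11 in KO-RA vs WT-RA, 4 and 8 in KO-O2 vs WT-O2, and 0 in KO-O2 vs KO-RA and for the interaction. The 10 members called in room air and the 6 under hyperoxia were called by DESeq2, under both other scalings and under both other filters. Fitting only the groups compared left 7 in room air, without Wnt2, Wnt3 and Rspo3, and gave 8 under hyperoxia. With both libraries of low choroid plexus markers left out, 8 and 6 were called, with Sfrp1 gained and Wnt2, Wnt3 and Rspo3 lost in room air. With both of the highest thalamus sums left out there were 10 and 6, with Wnt5a gained and Wnt3 lost in room air. With WT-O2 mouse 4 as room air, 10 and 5 were called.

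Over all genes, the 107 called in WT-O2 vs WT-RA became 310 with DESeq2, 296 with thalamus and striatum scores, 2 with choroid plexus and meninges scores, 55 with the hippocampal neuron score, 20 with only the groups compared, 210 without the libraries of highest thalamus sum, 6 with WT-O2 mouse 4 as room air, and 13 to 272 leaving out 1 library. The 2 in KO-O2 vs KO-RA became 0 to 13. The 1738 in KO-RA vs WT-RA became 2, 500 and 0 with the 3 sets of scores, 1059 without the libraries of low choroid plexus markers and 1076 (without KO-RA mouse 1) to 1929 leaving out 1 library, and the 1142 in KO-O2 vs WT-O2 became 1 with the thalamus and striatum scores, 1 with the hippocampal neuron score and 675 (without KO-O2 mouse 3) to 1335 leaving out 1 library. The cause was not tested. Depth limits Wnt8b, Sfrp5, Dkk2 and Wif1 most, with 1 to 74 counts per library.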
